A study of Mus musculus with 24 samples.

Results

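The genes of BMP signaling and of the ID family were followed across the RNA-seq libraries of a study of pioneer transcription factors and DNA methylation in mouse cells. Of the 51912 genes in each count table, 10 were chosen by name: the inhibitors of DNA binding Id1, Id2, Id3 and Id4, the ligands Bmp4 and Bmp7, the type I receptors Bmpr1a and Bmpr1b, the secreted antagonist Nog and the inhibitory SMAD Smad6. All 10 were found through their gene identifiers. RNA was measured in 3 libraries each of embryonic stem cells (ESCs), neuronal progenitors (NPs) and TET TKO ESCs. ESCs were wild type cells of strain C57BL/6 X 129S5, grown with LIF on gelatin. NPs were made from wild type ESCs of the same strain, which were aggregated in suspension without LIF and given retinoic acid in the later days. TET TKO ESCs lack TET1, TET2 and TET3, the enzymes that oxidize methylated cytosine, and carry the strain label C57BL/6 X 129/sv. They are a separate line with a separate background, so that genotype and line cannot be told apart in any comparison with ESCs.

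BMPs are secreted dimers that bring type I and type II receptor kinases together at the cell surface. The type I receptor then phosphorylates SMAD1, SMAD5 and SMAD9, which enter the nucleus with SMAD4 and activate target genes, among which Id1, Id2 and Id3 are the classical ones. ID proteins have a helix-loop-helix but no basic DNA binding region, and they hold E proteins in dimers that cannot bind DNA, which restrains the bHLH factors that drive differentiation. In mouse ESCs, BMP4 together with LIF is known to sustain self-renewal through ID proteins. In the neural tube, BMPs from the dorsal midline pattern the progenitors, and Noggin is an extracellular antagonist that keeps BMPs from their receptors.

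A GC-rich element, GGCGCC, is a known binding sequence of SMAD1 and SMAD5, and it was looked for in the 250 bases before each transcript start of RefSeq (GRCm38.p6). The table held 9 such windows for 7 of the 10 genes, and it had no entry for Id1, Bmp7 and Nog. The element, which reads the same on both strands, was present in the windows of Id2, Id4 and Bmpr1a and in 9.59% of all 32851 windows. That share is not matched for GC content, which was 62.8%, 75.6% and 78.8% in the windows of Id2, Id4 and Bmpr1a. The median over all windows was 52.4%. These 3 windows are shown to let the element be seen in its context, 5′ to 3′ on the gene's strand, with the element in capitals. Those of Id2 and Bmpr1a are cut where an annotated exon of another transcript of the gene begins:
Id2, minus strand, chr12:25096254-25096342: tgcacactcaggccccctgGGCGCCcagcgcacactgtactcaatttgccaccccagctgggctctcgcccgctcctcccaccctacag
Id4, plus strand, chr13:48260866-48261115: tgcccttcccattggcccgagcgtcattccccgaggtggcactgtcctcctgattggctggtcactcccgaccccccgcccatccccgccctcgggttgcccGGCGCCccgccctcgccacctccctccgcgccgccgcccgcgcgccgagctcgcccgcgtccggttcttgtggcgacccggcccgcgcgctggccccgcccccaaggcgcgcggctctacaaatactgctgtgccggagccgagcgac
Bmpr1a, minus strand, chr14:34502688-34502796: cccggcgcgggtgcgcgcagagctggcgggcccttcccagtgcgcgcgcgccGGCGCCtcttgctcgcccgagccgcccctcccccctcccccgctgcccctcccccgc

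The element began 231 bases before the RefSeq start of Id2, 148 bases before that of Id4 and 198 bases before that of Bmpr1a. The windows of Id2, Id3, Bmpr1a and Bmpr1b lie inside the span of the annotated gene, so that an annotated start lies further upstream. That of Id3 begins within an annotated exon. The windows of Id4 and Bmpr1a were rich in CpG, the dinucleotide that carries DNA methylation, with 35 and 36 CpGs in 250 bases against a median of 6 and quartiles of 2 and 16 over all windows. Smad6 had 27, Id2 and Id3 had 18 each, Bmp4 had 11 and the 3 windows of Bmpr1b had 1, 5 and 5. The SMAD sequence CAGACA was present in 1 window of Bmpr1b (17.1% of all windows), CACGTG, an E-box that bHLH factors can bind, in that of Bmp4 (6.02%), and the longer SMAD sequence GTCTAGAC, which overlaps CAGACA in part, in none of the 9 (0.167%). All were searched on both strands. These matches describe letters in a window, and neither binding nor methylation was measured there.

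Id1 lies at chr2:152736251-152737410 as a gene whose annotated exons form 1 block, Id2 at chr12:25093799-25097140, Id3 at chr4:136143497-136145755 and Id4 at chr13:48261427-48264036 (GRCm38). Bmp4 lies at chr14:46383520-46390669, Bmp7 at chr2:172868012-172940321, Bmpr1a at chr14:34410734-34503341, Bmpr1b at chr3:141837136-142169425, Nog at chr11:89300638-89302332 and Smad6 at chr9:63953076-64022059. Reads were counted over the exons without regard to strand. A gene on the opposite strand shares 10.3% of the exon bases of Id4, 4% of those of Bmp4 and 4.57% of those of Bmpr1a, and reads from these bases cannot be assigned to one gene. The other 7 genes share no exon base with another gene.

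Levels are given as RPKM, the counts scaled to the exon length of the gene in kilobases and to the size of the library, after TMM scaling of all 9 libraries, and differences as log2 fold changes from edgeR with their standard errors (SE). A gene was tested where at least 1 library of the compared groups reached 1 RPKM, and it was called where the Benjamini-Hochberg adjusted p over all genes tested was under 0.001 and the fold change at least 3, the limits of the study. Depth was 20519702 to 23976914 counts in ESCs and NPs and 80704741 to 93210102 in TET TKO ESCs, so that depth went along with genotype and line. The 8 ESC markers, Pou5f1 and Nanog among them, were all called lower in NPs, and the 8 neural progenitor markers, Pax6 and Sox1 among them, were all called higher. In TET TKO ESCs, Tet1 fell from 60.8 to 68.5 RPKM in ESCs to 11.3 to 16.1 (log2 fold change −2.28) and Tet2 from 16.1 to 20.5 to 2.32 to 2.70 (−2.94), while Tet3 stayed under 1 RPKM in both groups and was not tested. These are gene-level counts over all exons, and which exons were deleted is not given in the sources used here. The methods call the replicates biological without naming separate cultures, so that p-values rest on the spread between these samples. ESC replicates 1 and 2 were the most alike, with a chi-square per degree of freedom between their counts of 2.58. It was 16.75 and 23.76 for the other ESC pairs, 45.68 to 82.83 in NPs and 153.9 to 281 in TET TKO ESCs, not corrected for depth. Whether ESC replicates 1 and 2 are independent is not known, and the p-values of both comparisons take them as such.

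In NPs, 3 of the 4 ID genes were called higher than in ESCs, and the fourth missed the fold limit. Id2 rose 13.3-fold, Id3 7.38-fold and Id1 3.70-fold, and Id4 was 2.79-fold higher. In these bulk samples, more cells that express a gene and more RNA per cell cannot be told apart.

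Id3, the most abundant of the family, stood at 31.4, 30.9 and 21.5 RPKM in ESCs and at 159.7, 233 and 226 RPKM in NPs. The groups did not overlap, with a log2 fold change of 2.88 ± 0.21 (SE, n = 3 per group) and an adjusted p of 9.0e-06. Id2, which is known to hold back the differentiation of several lineages, was measured at 4.30, 5.31 and 3.49 RPKM in ESCs and at 38.9, 69.2 and 66.1 RPKM in NPs. NP replicate 1 was the lowest of its group and still far above the highest ESC library, and the log2 fold change was 3.73 ± 0.26 (adjusted p = 8.2e-06). Id1, the ID gene most often used as a readout of BMP signaling, had 22.2, 27.7 and 12.7 RPKM in ESCs and 54.5, 102.2 and 74.8 RPKM in NPs. Its groups did not overlap either, but the libraries spread widely, and the log2 fold change of 1.89 ± 0.31 had an adjusted p of 0.000795. That call was lost whichever of the 6 libraries was left out (adjusted p 0.00104 to 0.00353, log2 fold change 1.63 to 2.14).

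Id4, the ID gene with the lowest level in ESCs and NPs, was at 1.16, 1.52 and 1.64 RPKM in ESCs and at 3.70, 4.09 and 4.29 RPKM in NPs. The libraries of each group lay close together and the groups did not overlap. The log2 fold change of 1.48 ± 0.25 (adjusted p = 0.000923) passed the limit on p and not the limit on the fold change.

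**Figure D1:**
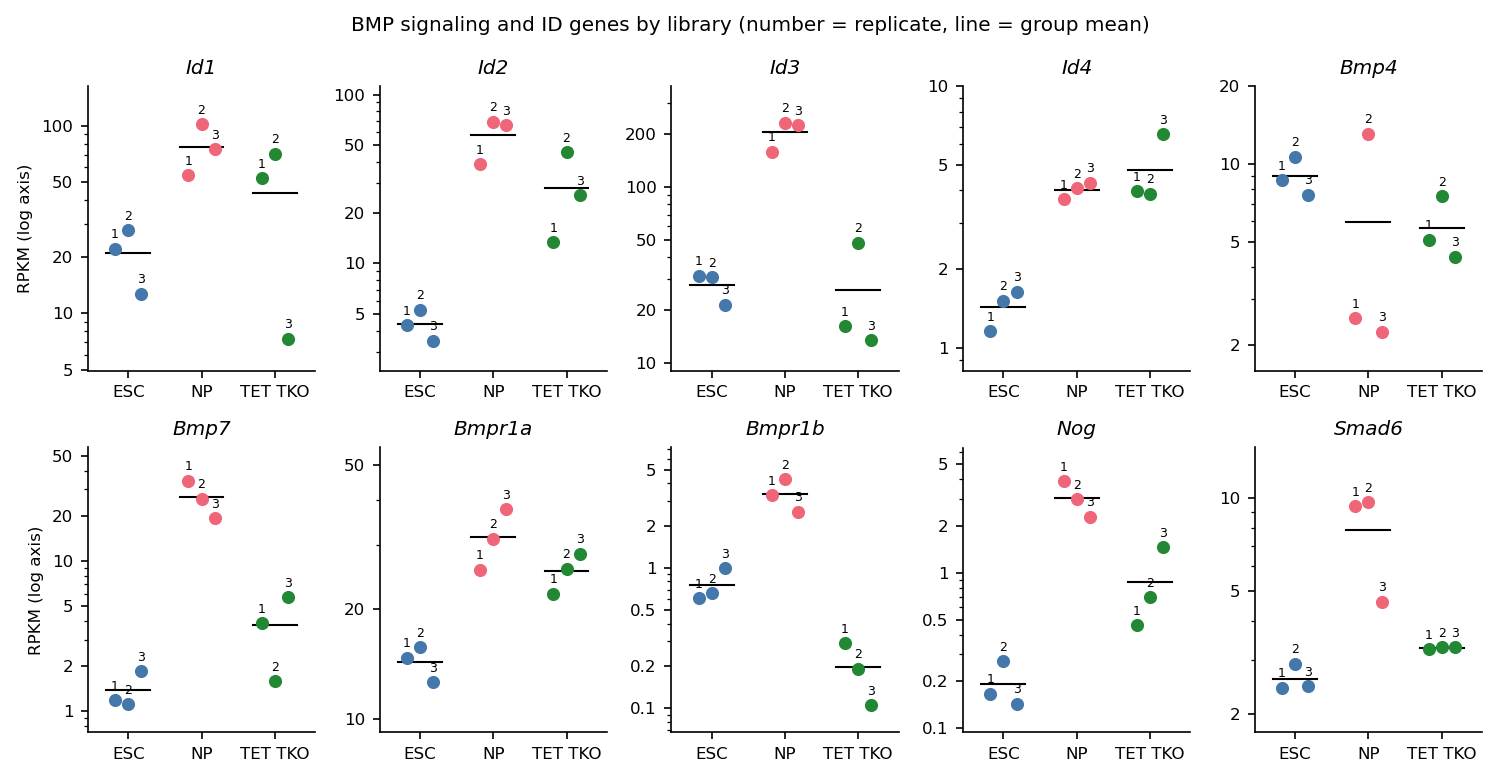
RPKM of each of the 10 genes in the 3 libraries of ESCs, NPs and TET TKO ESCs, on a log axis that differs between genes. Each point is a library with its replicate number and the line is the group mean. For 9 genes the NP libraries lie above all ESC libraries, while Bmp4 has 1 NP library at 13.1 RPKM and the others at 2.53 and 2.25.

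Summed over the 4 genes, ID RNA was 54.6 ± 13.6 RPKM in ESCs and 346 ± 79.2 RPKM in NPs (mean ± SD, n = 3), a ratio of 6.33. The mixture changed as well as the amount. Id3 made up 51.7% ± 3.94 of the sum in ESCs and 60.1% ± 2.65 in NPs, and Id1 went from 37.4% ± 5.03 to 22.1% ± 2.54. Id2 went from 8.09% ± 0.794 to 16.6% ± 1.36, and Id4 from 2.82% ± 1.19 to 1.20% ± 0.224. The ranges of ESC and NP libraries did not overlap for any of the 4 shares. No test was run on the shares, since the smallest p that an exact permutation test of 3 libraries against 3 allows is 0.1.

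**Figure D2:**
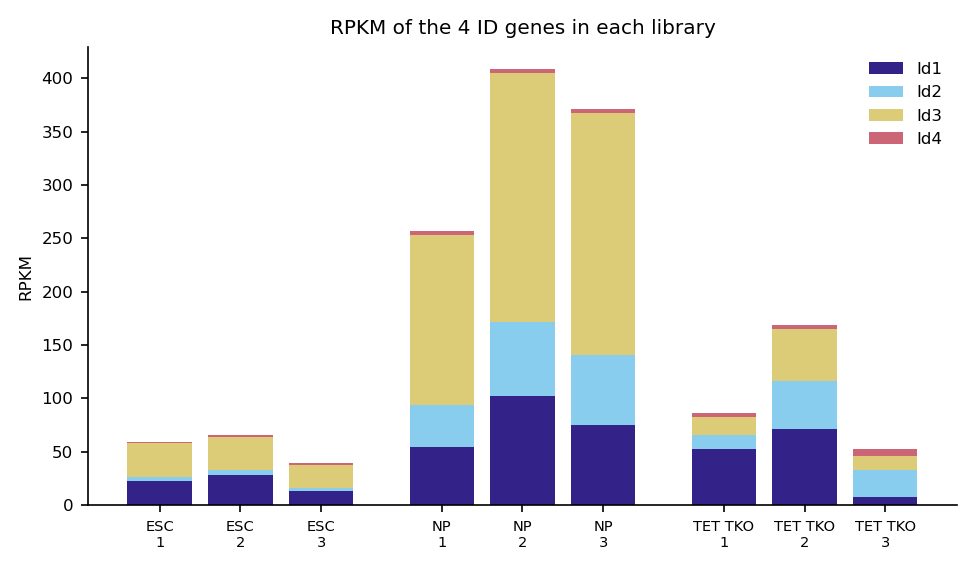
RPKM of Id1, Id2, Id3 and Id4 stacked for each of the 9 libraries, with bars starting at 0. The sums are 39.3 to 65.5 in ESCs, 257 to 409 in NPs and 52.9 to 169 in TET TKO ESCs, with Id3 as the largest block in all NP libraries, Id1 in TET TKO replicates 1 and 2 and Id2 in TET TKO replicate 3.

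The ligands did not move alike in NPs. Bmp7, a ligand of neural and kidney development among other tissues, rose 19.0-fold, and Bmp4, the ligand that supports ESC self-renewal, was not called. Bmp7 went from 1.18, 1.12 and 1.85 RPKM in ESCs to 34.3, 25.9 and 19.3 RPKM in NPs, a log2 fold change of 4.25 ± 0.28 (adjusted p = 6.0e-06). It was the member with the largest change. Bmp4 was at 8.66, 10.7 and 7.61 RPKM in ESCs and at 2.53, 13.1 and 2.25 RPKM in NPs. NP replicate 2 thus lay above all ESC libraries and NP replicates 1 and 3 below all of them. The log2 fold change was −0.60 ± 0.60 (adjusted p = 0.404), and without NP replicate 2 it was −1.91 ± 0.23 with an adjusted p of 0.000224, which is a call. The highest NP library of Bmp4 was 5.83 times the lowest, a spread that 1.02% of the 12412 tested genes with a mean of at least 1 RPKM in NPs reached.

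NP replicate 2 also differed in markers of other cell types. The summed RPKM of 8 mesenchyme markers was 43.6 in NP replicate 2 against 24.0 in replicate 1 and 6.74 in replicate 3. In ESCs it was 2.07 to 2.85, and 5 of the markers were tested and 2 called higher in NPs. Col1a1 held 17.4, 6.45 and 1.47 RPKM of these sums in NP replicates 2, 1 and 3, and Col1a2 8.93, 2.41 and 0.531. Neither was called. Col3a1 (8.53, 8.73 and 0.936) and Prrx1 (0.420, 0.509 and 0.0975) were highest in replicate 1, the other markers in replicate 2. The sum of 8 mesoderm markers was 27.1 against 10.9 and 6.46, of which Meox1 held 23.8, 8.83 and 4.76, and the early mesoderm gene Mesp1 was at or under 0.0645 RPKM in the 3 NP libraries. Neural progenitor markers summed to 171 RPKM in NP replicate 2 and to 301 and 221 in replicates 1 and 3. The part of mesenchyme or mesoderm cells, if present, in the level of Bmp4 was not tested. With NP replicate 2 left out, 6 of the 10 genes were still called, with Id1 lost and Bmp4 added as lower.

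Both type I receptors were higher in NPs, Bmpr1b 4.42-fold and past the limits, Bmpr1a 2.20-fold and short of the fold limit. Bmpr1a, the receptor expressed in nearly all tissues, was at 14.7, 15.8 and 12.6 RPKM in ESCs and at 25.7, 31.2 and 37.7 RPKM in NPs, with no overlap. Its log2 fold change was 1.14 ± 0.16 (adjusted p = 0.000387). Bmpr1b, whose expression is more restricted, was at 0.607, 0.660 and 0.996 RPKM in ESCs and at 3.29, 4.27 and 2.50 RPKM in NPs. The groups were well apart, with a log2 fold change of 2.14 ± 0.28 (adjusted p = 0.0002). The call was lost without ESC replicate 1 (adjusted p = 0.00148), ESC replicate 2 (0.00133) or NP replicate 1 (0.001). Per length, Bmpr1a RNA exceeded that of Bmpr1b in all 9 libraries, 12.7 to 24.3 times in ESCs and 7.31 to 15.04 times in NPs.

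The antagonist Nog, annotated as 1 exon block, was near the limit of detection in ESCs, with 6, 10 and 6 counts or 0.166, 0.270 and 0.144 RPKM. In NPs it reached 3.88, 2.96 and 2.29 RPKM, and it was called 15.5-fold higher (log2 fold change 3.96 ± 0.39, adjusted p = 4.4e-05). The lowest NP library was thus above the highest ESC library by a wide margin. Smad6, which blocks the BMP SMADs inside the cell and is itself a BMP target, went from 2.43, 2.91 and 2.46 RPKM in ESCs to 9.36, 9.67 and 4.62 RPKM in NPs. NP replicate 3 lay apart from the other NP libraries and above ESCs. The log2 fold change was 1.59 ± 0.28, a fold change of 3.01, and the adjusted p of 0.00113 fell short of the limit. Without NP replicate 3 it was 1.87 ± 0.17 (adjusted p = 0.000131), past both limits.

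In all, 6 of the 10 genes were called higher in NPs (Id1, Id2, Id3, Bmp7, Bmpr1b and Nog) and 0 lower, where 22.4% of the 15197 genes tested were called, 12.4% higher and 9.98% lower. Of the 10, 9 had an adjusted p under 0.05, all higher in NPs, where 64.1% of all genes tested did, 32.9% higher and 31.2% lower. The same 9 did not overlap between the groups, where 71.8% of all genes tested did not, 36.3% higher and 35.5% lower. The median log2 fold change was 2.01 over the 10 genes and 0.0371 over all genes tested. The genes were chosen with earlier results known, and these counts describe them without a test of the group.

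**Figure D3:**
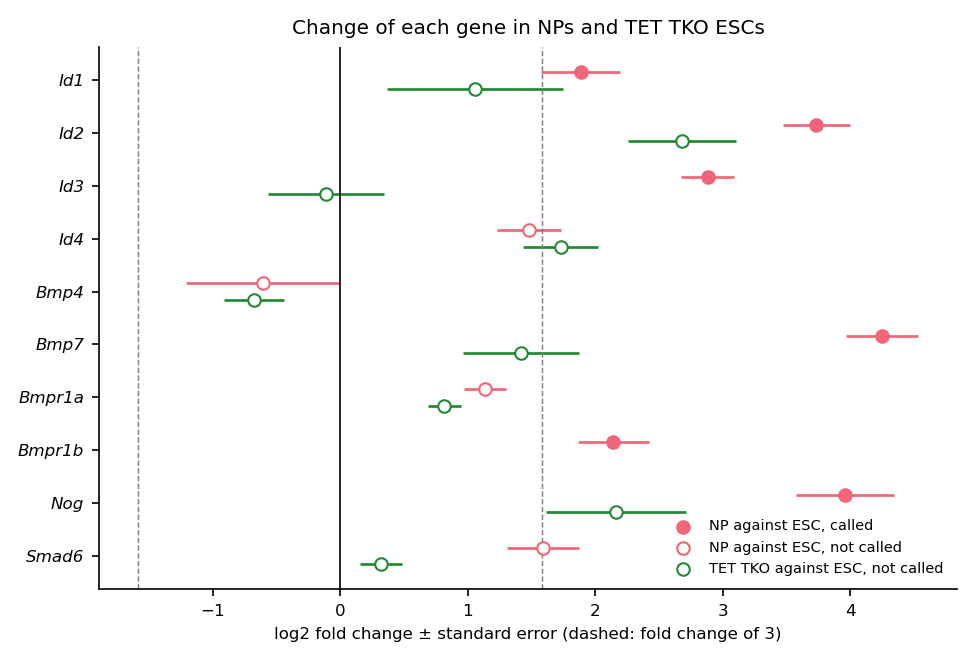
Log2 fold change against ESCs with its standard error for the 10 genes, in NPs and in TET TKO ESCs, with 3 libraries per group. Filled points are called, open points are not, the dashed lines mark a fold change of 3, and both comparisons use the same ESC libraries. In NPs 6 genes are called and only Bmp4 lies below 0; in TET TKO ESCs no gene is called and Bmpr1b was not tested.

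In TET TKO ESCs, 9 of the 10 genes passed the filter and 0 were called, where 2.31% of the 13939 genes tested were called, 1.1% higher and 1.21% lower. By the unadjusted p, 6 of the 9 were under 0.05, where 46.5% of all genes tested were, and by the adjusted p 5 were under 0.05 (Id2, Id4, Bmp7, Bmpr1a and Nog, all higher), where 35.5% of all genes tested were, 22.8% higher and 12.7% lower. The libraries of 6 did not overlap with ESCs, 5 of them higher and Bmp4 lower, where 51.7% of all genes tested did not, 31.7% higher and 20% lower. DESeq2, a second count model, called 2 genes, Id2 and Id4. The ID genes separated into a pair whose 3 libraries all lay above ESCs and a pair whose libraries straddled them.

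Id2 was at 13.4, 45.7 and 25.4 RPKM in TET TKO ESCs, all above the highest ESC library at 5.31. The log2 fold change of 2.68 ± 0.42 was a 6.42-fold difference with an adjusted p of 0.003 in edgeR and 6.3e-10 in DESeq2. Id4 was at 3.97, 3.89 and 6.57 RPKM, again without overlap with ESCs. It had a log2 fold change of 1.73 ± 0.29 (3.32-fold, adjusted p = 0.00399, and 7.1e-06 in DESeq2), and unlike in NPs it was the fold limit that it passed and the limit on p that it missed.

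Id1 was at 52.7 and 70.9 RPKM in TET TKO replicates 1 and 2, above all ESC libraries, and at 7.31 RPKM in replicate 3, below all of them. Its log2 fold change of 1.06 ± 0.69 had an adjusted p of 0.267. The highest TET TKO library was 9.70 times the lowest, and 0.171% of the 12307 tested genes with a mean of at least 1 RPKM in TET TKO ESCs were as spread, where the median gene had a ratio of 1.36. Id3 was at 16.2, 48.5 and 13.6 RPKM, so that 1 library lay above all ESC libraries and the others below. Its log2 fold change was −0.11 ± 0.46 (adjusted p = 0.869), and the sign turned to 0.14 without TET TKO replicate 1 and to 0.20 without replicate 3.

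The sum of the 4 ID genes was 103 ± 59.8 RPKM in TET TKO ESCs, 1.88 times that in ESCs, with libraries from 52.9 to 169. The shares varied from library to library. Id1 made up 61.1%, 42.0% and 13.8% of the sum in replicates 1, 2 and 3, Id2 15.5%, 27.1% and 48.1%, and Id4 4.60%, 2.30% and 12.4%. Id3 held 18.8%, 28.7% and 25.7%, below the 47.3% to 54.7% of the ESC libraries in each case.

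TET TKO replicate 3, in which Id1 was lowest, had the highest Id4, Bmp7 and Nog of its group and the lowest Bmpr1b. In the same library, Pou5f1 was at 209 RPKM against 335 and 343 in replicates 1 and 2, Nanog at 373 against 146 and 210.1, and the trophoblast and epithelial keratin Krt7 at 9.16 against 1.93 and 2.41. The 8 trophoblast markers, 5 of them tested and 1 called higher in TET TKO ESCs (Hand1), summed to 109.8 RPKM in replicate 3 and to 67.4 and 66.8 in replicates 1 and 2, against 23.8 to 30.6 in ESCs. Tfap2c alone held 79.1, 51.8 and 40.5 RPKM of these sums, and without it they were 30.8, 15.7 and 26.3 RPKM in replicates 3, 1 and 2. Of the 8 markers, 4 were highest in replicate 3 and 3 in replicate 2, and Tpbpa, a marker of differentiated trophoblast, was at or under 0.0378 RPKM in all 9 libraries. Cdx2 (0.178 to 0.384 RPKM) and Elf5 (0.0463 to 0.131 RPKM) were also low in TET TKO ESCs and were not tested. Hand1 is also 1 of the mesoderm markers used here. The 8 neural progenitor markers summed to 9.75 RPKM in replicate 3, 16.6 in replicate 1 and 22.4 in replicate 2, against 6.23 to 7.87 in ESCs. The part of these differences in the levels of the ID and BMP genes was not tested. Without replicate 3, 8 of the 10 genes were tested and 0 called.

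Bmp7 was at 3.86, 1.59 and 5.73 RPKM in TET TKO ESCs, with replicate 2 inside the ESC range, and had a log2 fold change of 1.42 ± 0.46 (adjusted p = 0.0441). Bmp4 was at 5.10, 7.53 and 4.38 RPKM, all below the lowest ESC library at 7.61, with a log2 fold change of −0.67 ± 0.24 (adjusted p = 0.059). Nog was at 0.459, 0.694 and 1.46 RPKM, or 60, 84 and 213 counts, all above ESCs, with a log2 fold change of 2.16 ± 0.55 (adjusted p = 0.019).

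The type I receptors lay on opposite sides of their ESC levels in TET TKO ESCs. Bmpr1a was at 22.1, 25.9 and 28.5 RPKM, without overlap, with a log2 fold change of 0.82 ± 0.13 (1.76-fold, adjusted p = 0.00303). Bmpr1b was at 0.291, 0.190 and 0.105 RPKM, or 134, 81 and 54 counts, all below the lowest ESC library at 0.607, and it was not tested because no library of the pair of groups reached 1 RPKM. In a fit with no filter on low values, Bmpr1b had a log2 fold change of −1.96 ± 0.38 (adjusted p = 0.0005) and was called lower. In the other 3 settings that tested it, the log2 fold change was −2.12 to −1.95 with adjusted p-values of 0.00439 to 0.00940, which are not calls. Bmpr1a RNA per length was 75.7, 136 and 271 times that of Bmpr1b in the 3 TET TKO libraries.

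Smad6 was the steadiest of the 10 in TET TKO ESCs, at 3.24, 3.29 and 3.29 RPKM, with a log2 fold change of 0.32 ± 0.17 (adjusted p = 0.17). Scaling by library sizes alone, in place of TMM, moved the median log2 fold change of all genes in this comparison from 0.125 to −0.0457 and the share of higher genes among those called from 47.5% to 34.1%. The members' fold changes kept their signs under that scaling.

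Ordered by the group means, NPs came first for 8 of the 10 genes. For Id3, Bmp7, Bmpr1b, Nog and Smad6 all NP libraries lay above all libraries of the other groups. For Id1, Id2 and Bmpr1a the ranges of NP and TET TKO libraries overlapped, and for Id4 the mean was highest in TET TKO ESCs, at 4.81 ± 1.52 RPKM against 4.03 ± 0.298 in NPs, with overlapping ranges. For Bmp4 the mean was highest in ESCs, at 8.98 ± 1.56 RPKM, and neighbouring groups overlapped. Only Bmpr1b, Nog and Smad6 had all 3 groups apart from their neighbours, with TET TKO ESCs lowest for Bmpr1b and in between for Nog and Smad6.

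The wider pathway and the partners of ID proteins were read from 83 genes in 7 lists, together called the pathway lists. Of these, 61 were tested in NPs and 25 were called higher and 6 lower, where 12.4% of all genes tested were called higher and 9.98% lower, shares against which the counts of each list are also to be read. The median log2 fold change was 1.52 against 0.0371 for all genes tested. These totals include the ID partners, which are not genes of BMP signaling. Of them, 9 of 11 tested tissue bHLH factors and 1 of 3 E proteins were called higher and 0 lower. The median was 6.03 for the bHLH factors and 0.715 to 2.96 for the lists of BMP genes. Among 14 other ligands, 5 were tested. Bmp2, a close relative of Bmp4, rose (log2 fold change 4.33 ± 0.46) from at most 0.206 RPKM in ESCs to 2.94, 3.23 and 1.52 RPKM in NPs. Gdf10 rose too (5.92 ± 0.49), reaching 1.10 to 1.95 RPKM. Gdf3, a ligand of pluripotent cells, fell by 7.58 on the log2 scale, from 47.7 to 58.1 RPKM in ESCs to 0.160 to 0.442 RPKM in NPs, and Bmp8a fell by 3.78.

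Among 10 other receptors and coreceptors, the type I receptor Acvr1 (log2 fold change 0.89 ± 0.18) and the type II receptor Bmpr2 (1.04 ± 0.13) were higher in NPs by less than the fold limit. The calls were coreceptors. Rgma (3.99 ± 0.22) and Rgmb (1.94 ± 0.19), repulsive guidance molecules that bind BMPs, rose, Rgma from 0.788, 0.817 and 1.03 RPKM to 17.8, 12.0 and 12.2 RPKM. Eng, the coreceptor endoglin best known from endothelium, fell by 4.44 on the log2 scale, from 18.5 to 24.3 RPKM to 0.469 to 1.75 RPKM, and Hfe2, the iron-regulating coreceptor hemojuvelin, fell by 3.49.

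Among 12 SMADs and intracellular regulators, all tested, only the inhibitory Smad7 was called, and it fell by 2.27 on the log2 scale, from 26.6, 27.3 and 24.6 RPKM in ESCs to 6.74, 5.98 and 3.63 RPKM in NPs. Smad6 and Smad7, both inhibitory SMADs, thus lay on opposite sides of their ESC levels in NPs, though Smad6 itself was not called. None of the signal-carrying SMADs was called. Smad1, Smad5 and Smad4 were higher in NPs by less than the fold limit, and Smad9 was 3.89-fold higher and missed the limit on p. The log2 fold changes were 1.49 ± 0.14 for Smad1, 1.43 ± 0.14 for Smad5, 1.96 ± 0.57 for Smad9 and 0.78 ± 0.12 for the common partner Smad4, with adjusted p-values of 4.0e-05, 4.8e-05, 0.0149 and 0.000605. Per length, Smad4 at 33.5 to 41.9 RPKM and Smad5 at 19.0 to 25.6 RPKM were the most abundant of these in NPs, and Smad9 was at or under 1.03 RPKM.

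Of 21 extracellular modulators other than Nog, 13 were tested and 7 rose, with 0 lower. Sost, an antagonist of WNT signaling related to the BMP antagonists, had 0, 0 and 1 counts in ESCs and 92, 98 and 118 in NPs, or 1.95 to 2.46 RPKM, a ratio of 303 with a 95% interval of 54 to 12000 from the counts alone. Sostdc1 (4.92 ± 0.64), a secreted BMP and WNT antagonist, and Bmper (4.47 ± 0.73), a secreted BMP-binding protein, rose as well, Bmper with 2.59 RPKM in NP replicate 2 against 0.796 and 0.634 in the others. Tll1 (3.57 ± 0.28), a protease that cleaves the antagonist Chordin, and its relative Bmp1, together with Nbl1 and Crim1, completed the calls. Fst, an antagonist that binds activins and some BMPs, had a log2 fold change of 2.07 ± 0.44 with an adjusted p of 0.00337, and Chrd, Chordin itself, 0.21 ± 0.28.

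Of 10 further genes known as BMP targets, 7 were tested, 4 rose and 1 fell, with a median log2 fold change of 2.96. The homeobox gene Msx1 rose by 7.99 ± 0.23 on the log2 scale, from 0.0910 to 0.133 RPKM to 25.2, 35.5 and 27.7 RPKM, and its relative Msx2 by 2.98 ± 0.32. Atoh8 had 0 counts in the 3 ESC libraries and 289, 263 and 125 in NPs, and it was at least 222-fold higher when set against a floor of 3 counts over the ESC group. Tfap2c, a factor of trophoblast and germ cells, fell by 3.72 on the log2 scale. Msx1 is also a marker of the dorsal midline, whose 8 genes summed to 71.2 to 77.6 RPKM in NPs and 3.42 to 4.79 RPKM in ESCs. Msx1 itself is part of this sum, and Wnt1 held 29.9, 21.2 and 23.8 RPKM of it in NPs. Of 7 tested, 5 were called higher, and Lmx1a (0.33 ± 0.55, adjusted p = 0.617) and Rspo1 (0.14 ± 0.35, 0.747) were not. The roof plate ligand Gdf7 was at or under 0.121 RPKM in NPs. The 8 endoderm markers summed to 33.8, 48.3 and 55.2 RPKM in NP replicates 1, 2 and 3 against 2.36 to 3.70 RPKM in ESCs. Cxcr4 alone held 12.5, 25.6 and 29.8 RPKM of these sums in NPs. Of 7 tested, 5 were called higher, Foxa2, Sox17 and Cxcr4 among them, and Afp was at or under 0.574 RPKM. Whether dorsal midline or endoderm cells were present, and their part in the ID and BMP levels, was not tested.

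The RNAs of proteins that ID factors are known to bind or restrain were also measured. Of the 3 E proteins, Tcf12 rose by 1.90 ± 0.14 on the log2 scale, while Tcf3 (1.15 ± 0.14) and Tcf4 (1.53 ± 0.15) were higher by less than the fold limit. Tcf3 was the most abundant per length, at 90.7 to 114 RPKM in NPs. Of 13 tissue bHLH factors, 11 were tested and 9 rose. Neurog2, a proneural factor, had 1 count in each ESC library and 19.6 to 29.7 RPKM in NPs, a ratio of 1230 with a 95% interval of 421 to 5970 from the counts alone. Neurod4 had a ratio of 1300 (234 to 51600) on a total of 1 count in ESCs. Hes5, a target of Notch that keeps cells as progenitors, rose by 9.22 ± 0.60 to between 20.05 and 49.4 RPKM.

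**Figure D4:**
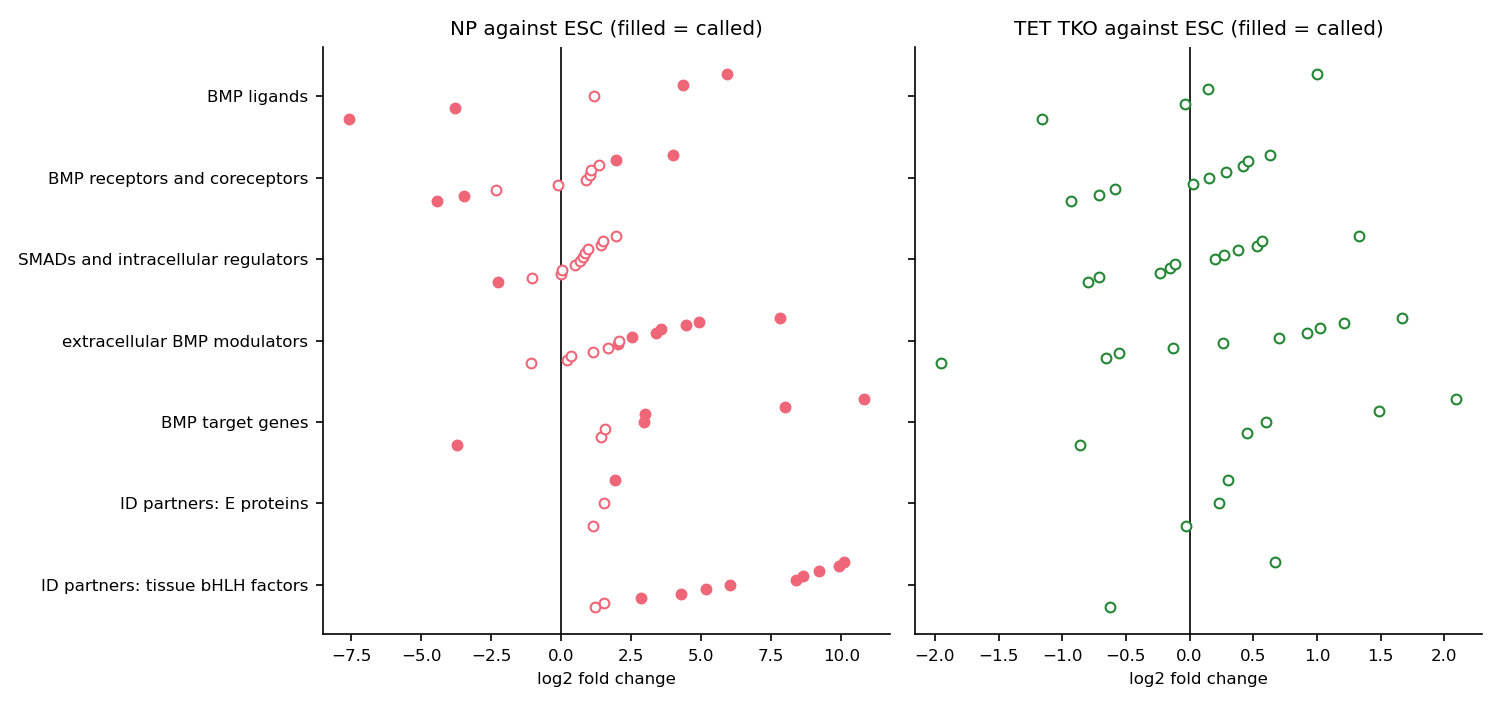
Log2 fold change of the tested genes of 7 lists of the BMP pathway and of ID partners, in NPs (left) and TET TKO ESCs (right) against the same ESC libraries, with separate horizontal scales. Each point is a gene, filled where called. In NPs 31 of 61 genes are called, with 9 of 11 tissue bHLH factors higher, and in TET TKO ESCs none of 44 is.

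In TET TKO ESCs, 44 of the 83 genes were tested and 0 were called. An unadjusted p under 0.05 was found for 23, where 46.5% of all genes tested had one, and an adjusted p under 0.05 for 17, near the 35.5% of all genes tested. DESeq2 called 2. The median log2 fold change was 0.245 against 0.125 for all genes tested. Smad1 and Kcp each missed 1 limit by little. Smad1 was at 5.97, 6.45 and 6.69 RPKM against 2.50, 2.62 and 2.45 RPKM in ESCs, a log2 fold change of 1.33 ± 0.12 with an adjusted p of 0.000338 that missed the fold limit alone. Kcp, a secreted chordin-like protein, was at 0.472, 0.361 and 0.285 RPKM against 1.3, 1.42 and 1.57 RPKM in ESCs, without overlap, and its log2 fold change of −1.95 ± 0.24 (3.87-fold lower, adjusted p = 0.00121) missed the limit on p alone. The log2 fold changes of the other core components were −0.16 ± 0.11 for Smad5, 0.20 ± 0.09 for Smad4, −0.72 ± 0.17 for Smad7, 0.63 ± 0.21 for Acvr1 and 0.42 ± 0.14 for Bmpr2, and Smad9 was not tested. The targets Dlx3 (2.09 ± 0.52) and Tfap2c (1.49 ± 0.25) were the highest of their list, with adjusted p-values of 0.0171 and 0.00396, and both are also known from trophoblast. Of the tissue bHLH factors only Hes1 (−0.63 ± 0.13) and Neurod1 (0.67 ± 0.68) were tested.

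Genes with the most similar pattern to each ID gene were taken as those with the smallest root mean square difference in centred log2(RPKM + 0.1) over the 9 libraries, among 13521 genes tested in both comparisons. Id4 had the closest partners, Zcrb1 (0.189) and Plpp5 (0.19), both at about equal mean levels in NPs and TET TKO ESCs, 12.6 and 13.1 RPKM for Zcrb1 and 4.08 and 4.72 RPKM for Plpp5. For Id2 they were Gprc5c (0.439) and Peg3 (0.484), for Id3 Peg13 (0.425) and Zfp334 (0.457), and for Id1 the transcript A930024E05Rik (0.471) and Fst (0.6). The patterns of Id1, Id2 and Id3 were not each other's nearest, with differences of 1.26 between Id1 and Id2, 1 between Id1 and Id3 and 1.23 between Id2 and Id3. The 9 libraries share the contrast between cell types, and these values are descriptions without a test.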

How the data were processed

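The authors deposited raw counts per gene for 9 RNA-seq libraries, in 3 groups of 3. Single-end reads from a stranded mRNA kit were trimmed, mapped with STAR 2.6.1b (per the submitters' processing notes) to GRCm38 and assigned by featureCounts 1.6.2 to Ensembl 89 genes without strand. No columns were left unmatched (0). The methylation samples were not used here.

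From these counts, groups were compared pairwise in edgeR 4.0.16 (R 4.3.3) by the quasi-likelihood F-test with TMM scaling and the limits of the study. Its sentence on the RPKM filter is not clear, and keeping genes that reach 1 RPKM in at least 1 library is a reading of it; the code was tested on simulated data. DESeq2 1.42.0 was an alternative. Members and lists were chosen with earlier results of these data known. Named genes are the 10 members, Tet1 to Tet3, core receptors and SMADs, per list and comparison the 4 called genes with the largest change, and the 2 genes most like each ID gene, except for an item that is not reported here. Other genes named (marker genes, further list genes without a call and the remaining calls) were added after their values were seen. Intervals and floors cover counting error only. Figures were drawn with matplotlib 3.10.9.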

Additional observations from a re-analysis of the deposited data

How the results depend on the processing

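In NPs, the 6 calls among the 10 genes varied between 4 and 6 when single libraries were left out, the 31 calls of the pathway lists between 27 and 31 and the 3408 of all genes between 2464 and 3413. Id2, Id3, Bmp7 and Nog were called under all 12 alternatives run on single genes. Id1 also lost its call with all 3 groups in the fit (adjusted p = 0.0229). Smad6 was called with no filter (4.7e-06) and with all 3 groups in the fit (0.000428). Calls of all genes were 5281 with no filter, 9734 at an adjusted p under 0.05 and 5145 at an adjusted p under 0.001 with no fold limit, and 56 pathway genes passed an adjusted p of 0.05.

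In TET TKO ESCs, leaving out single libraries gave 0 calls among the 10 genes and 0 in the pathway lists, and 50 to 329 among all genes, against 322. The count of all genes fell without ESC replicate 1 (50), 2 (59) or 3 (74) and without TET TKO replicate 1 (126) or 2 (190). DESeq2 called 910 genes, 2 members and 2 pathway genes, and no filter gave 1263, 3 and 2. At an adjusted p under 0.05 the numbers were 4953, 5 and 17, and at 0.001 with no fold limit 535 genes and 1 pathway gene. Thinning TET TKO counts to the median ESC depth gave 1 pathway gene. Leaving out single libraries moved the log2 fold change of Id3 between −0.91 (without TET TKO replicate 2) and 0.20 (without replicate 3), and it was 0.14 without replicate 1. The causes of these differences were not tested.

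In each library, the deviation of each gene from the mean of its own group was taken. These deviations, not the expression levels, were correlated with those in ESC libraries. For NPs the correlations were −0.142 to 0.000916 between libraries of the same number, against −0.092 to 0.126 for unlike numbers. For TET TKO ESCs they were −0.0905 to 0.353 with 2 of 3 pairs above 0.1, against −0.434 to 0.227 for unlike numbers. The numbers were not taken as pairs, a choice that the TET TKO values do not settle. With the replicate number as a block, TET TKO ESCs had 674 calls, 1 of them a member (Id2) and 2 in the pathway lists, and NPs had 3415, 6 and 31. Counts in ESC libraries were lowest for Nog (6 to 10), followed by Id4 (41 to 67), Bmpr1b (77 to 146) and Bmp7 (98 to 183). The fold changes of these genes are limited by depth, that of Nog the most.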
